A study of Mus musculus with 6 samples.

Results

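Mitochondrial ribosomal protein genes are nuclear genes whose products build the ribosome inside mitochondria. The members taken here were the protein-coding genes whose symbol starts with Mrpl (large subunit) or Mrps (small subunit) followed by a number and which had at least 10 counts in 3 or more libraries. This gave 77 genes of 21955 in the count files, 48 Mrpl and 29 Mrps, out of 78 with such a symbol. The RNA was that of neutrophils isolated from the dura, the tough outer sheet of the meninges, in wild-type (WT) mice after social threat exposure, which both groups share. There were 3 libraries labelled male and 3 labelled female. Unexposed mice were not analysed here. The labels name no strain or age and do not tie a library to an animal, so p-values describe spread among libraries that could be technical repeats. In bulk RNA, fewer cells of a type and less RNA per cell cannot be told apart.

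The mitochondrial ribosome translates the few messenger RNAs of the mitochondrial genome, all of which code for subunits of the respiratory chain and of ATP synthase. Its RNAs are transcribed inside the organelle, while all of its proteins are made in the cytosol and imported, so that its assembly needs both genomes. About each protein it can be asked whether it descends from a bacterial ribosomal protein or is specific to mitochondria, and both kinds are found in both subunits. Mature neutrophils are known for few mitochondria and for energy from glycolysis.

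Totals were 17098026 to 20778410 counts per library, of which the members took 32750 to 41969. The genes Ddx3y, Eif2s3y, Kdm5d and Uty of the Y chromosome summed to 307 to 318 CPM, the count scaled to library size with TMM factors, under the label male and to 312 to 328 CPM under the label female. These go against the label female, so the groups are called by their labels throughout, and a direction between them is one between libraries so labelled. Neutrophil markers (9 of 10 fitted, S100a9 and Ngp among them) summed to 53100 to 58600 CPM under the label male and 59100 to 76300 CPM under the label female. Here rose and fell mean an adjusted p under 0.05 in the edgeR test described below. Of all genes fitted 7.29% rose and 6.62% fell by it. Of 9 neutrophil markers 6 rose. Of 10 B cell markers 8 fell, with sums of 281 to 343 CPM under the label male against 167 to 234 CPM under the label female. Of 10 dendritic cell markers 6 fell (353 to 370 against 245 to 257 CPM). The fitted change was above 0 for all 9 neutrophil markers. It was below 0 for all 10 B cell and all 10 dendritic cell markers. Of 8 erythroid markers 5 rose (sum 22.3 ± 3.21 against 55.1 ± 15.4 CPM, SD, n = 3, without overlap), of 5 fibroblast markers 2 fell (20.4 to 27.1 against 14.4 to 17.6 CPM), of 9 macrophage markers 1 rose (76.1 to 85.7 against 85.2 to 100 CPM) and of 9 T cell markers 1 fell (78.9 to 97.2 against 70.8 to 88.3 CPM). No B cell or dendritic cell marker was at 0, while Folr2 of the macrophage list was at 0 in every library. Their part in the results below was not tested. Library female replicate 3 stood apart from the other libraries labelled female, with a chi-square per degree of freedom of 14.1 and 17.4 against them and 5.33 between them.

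The mitochondrial ribosomal protein genes differed little between the groups. By edgeR's quasi-likelihood test with Benjamini-Hochberg adjustment (threshold 0.05), Mrpl30 was lower and Mrpl17 higher under the label female, and no other member passed. These are 2 of 77 members, or 2.6%, where 13.9% of all 11903 genes fitted were called. Higher calls made up 7.29% and lower calls 6.62% of all genes. Among the 6742 genes whose mean level lay between those of the lowest and the highest member, 10.7% were called. The median log2 change (libraries labelled female minus those labelled male) was 0.04 over the Mrpl genes and 0.01 over the Mrps genes, beside 0.002 over all genes fitted. The Mrps median was -0.0033 with upper-quartile scaling. Fitted changes ran from -0.35 (Mrps34) to 0.33 (Mrpl17), with 45 members above and 32 below 0.

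A p that misses the threshold does not show that levels were alike, so the intervals are given too. The 95% interval of the change lay within 1.5-fold in either direction for 75 of 77 members (97.4%), beside 73.4% of all genes fitted. Among the 6742 genes in the members' range of mean level it was 78.6%. The 2 others were Mrps18c, with an interval from -0.71 to 0.08 on the log2 scale, and Mrps34, from -0.73 to 0.03. For Mrpl42, a protein specific to mitochondria, the change was -0.002 with an interval from -0.16 to 0.16. Leaving out library female replicate 3 raised the number of members called to 7 (9.09%), where 22.4% of all genes were then called. The members called without it were Mrpl15 and Mrpl50 (higher) and Mrpl30, Mrpl4, Mrpl28, Mrpl54 and Mrpl58 (lower), with Mrpl17 no longer among them. Without male replicate 1 or male replicate 3 no member was called by edgeR, where 8.5% and 7.51% of all genes were. Without female replicate 2 Mrpl30 alone was called, where 9.69% of all genes were. With all libraries, 9 of 77 members had an unadjusted p under 0.05, beside 27.6% of all genes fitted.

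**Figure D1:**
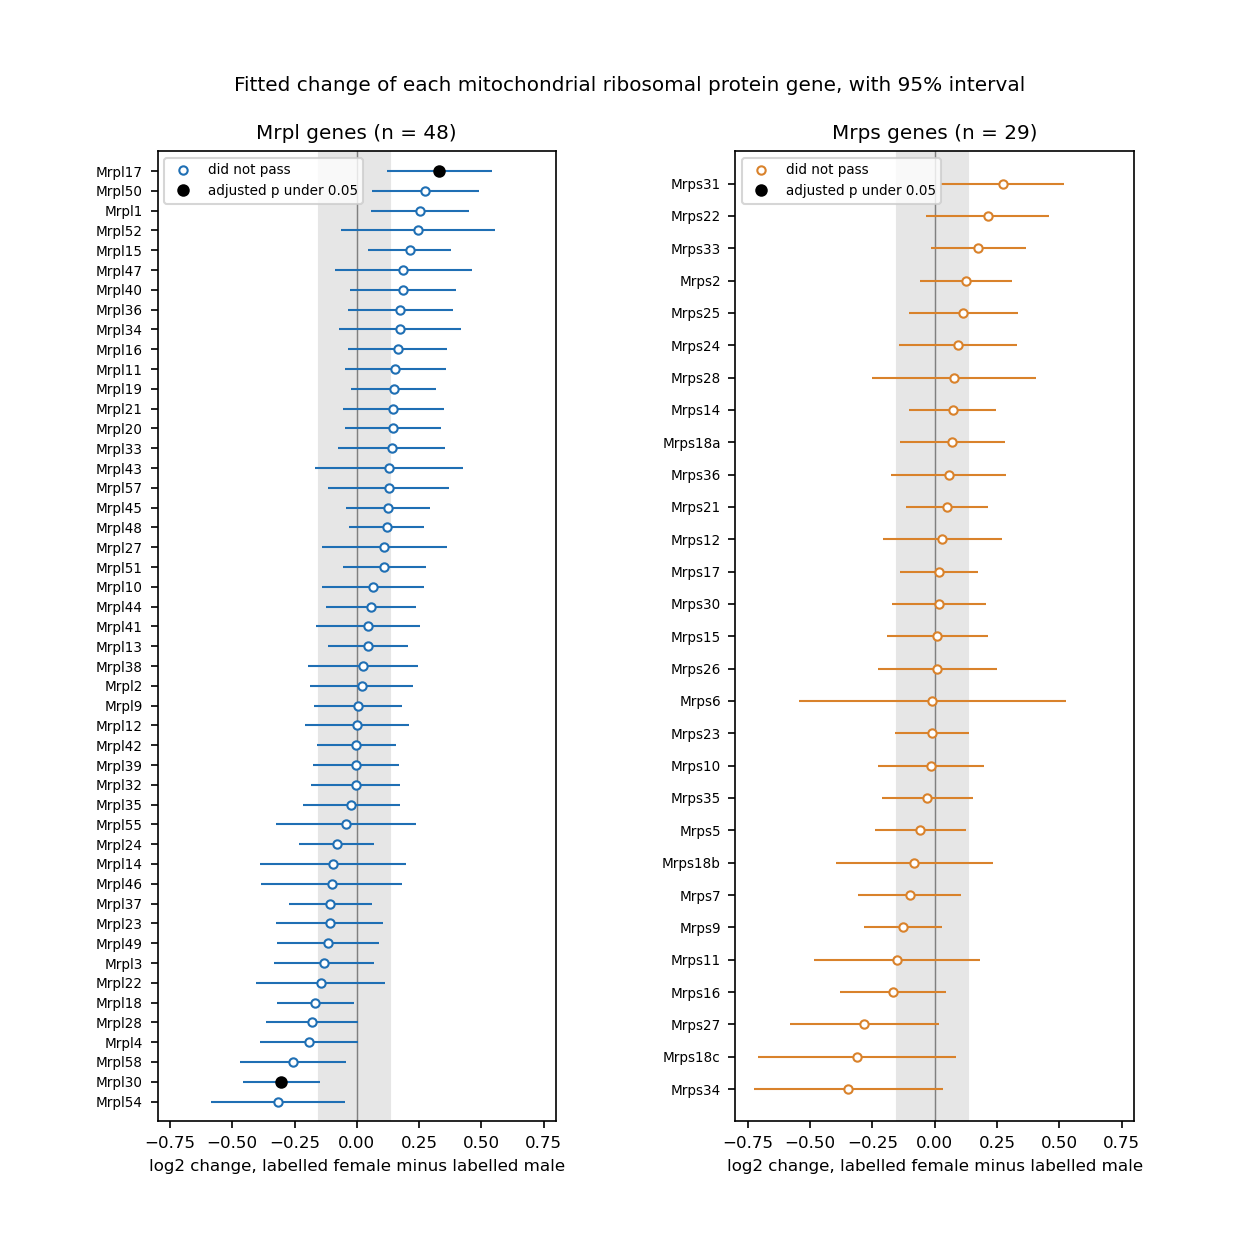
Fitted log2 change of each of the 77 genes (x axis, libraries labelled female minus those labelled male) with its 95% interval, for Mrpl genes on the left and Mrps genes on the right. The grey band is the interquartile range of all genes fitted, from -0.15 to 0.13, and filled black points are Mrpl30 and Mrpl17, the members with an adjusted p under 0.05.

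Mrpl30 (ENSMUSG00000026087, chromosome 1) encodes a large subunit protein that is the counterpart of bacterial L30. Its level was 65.5, 55.0 and 62.7 CPM under the label male and 50.8, 48.5 and 49.3 CPM under the label female. All libraries labelled female lay below all those labelled male. The level was 1.23-fold lower, at 49.5 ± 1.14 against 61.1 ± 5.43 CPM (SD, n = 3; log2 -0.30, SE 0.074, adjusted p = 0.00892 by edgeR). The call was lost without male replicate 1 (adjusted p = 0.0745) or male replicate 3 (0.0587), and over all alternatives the adjusted p ran from 0.00249 to 0.0745.

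Mrpl17 (ENSMUSG00000030879, chromosome 7) is the counterpart of bacterial L17, a protein near the exit of the tunnel through which the new chain leaves the ribosome. It had 22.1, 23.4 and 19.8 CPM under the label male and 24.3, 28.0 and 29.8 CPM under the label female. The groups did not overlap, but the highest library labelled male and the lowest labelled female were close. The level was 1.26-fold higher, at 27.4 ± 2.77 against 21.8 ± 1.83 CPM (SD, n = 3; log2 0.33, SE 0.10, adjusted p = 0.0314 by edgeR). The call was lost without male replicate 1 (adjusted p = 0.0776), male replicate 3 (0.16), female replicate 2 (0.0991) or female replicate 3 (0.0576), and over all alternatives the adjusted p ran from 0.00962 to 0.16.

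The sequence before the start site is shown for both called genes, from RefSeq's promoter windows on build GRCm38.p6, to compare them for matches to factors known to bind promoters of mitochondrial genes. Only bases outside annotated exons are printed, 5′ to 3′ on the gene's strand, and capitals mark a match to NRF1 (GCGCA, any base, then GCGC) or to the ETS core bound by GABP (CCGGAAG) on either strand. The Mrpl30 stretch, chr1:37890412-37890476 on the plus strand, holds neither. It is all that lies between Mrpl30 and its divergent neighbour Mitd1. The Mrpl17 stretch, chr7:105811100-105811337 on the minus strand, holds 1 of each. It has 238 bases and the Mrpl30 stretch 65, so the stretches are not compared at equal length.
Mrpl30: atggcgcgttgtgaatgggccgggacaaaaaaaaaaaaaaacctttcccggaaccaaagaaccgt
Mrpl17: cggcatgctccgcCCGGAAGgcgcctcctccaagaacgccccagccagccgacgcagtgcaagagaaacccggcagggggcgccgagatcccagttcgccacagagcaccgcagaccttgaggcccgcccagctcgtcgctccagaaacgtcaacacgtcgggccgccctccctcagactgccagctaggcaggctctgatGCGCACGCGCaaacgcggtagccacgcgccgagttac

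Matches were then counted in the whole windows, from 250 bases before to 50 bases after each start site, on both strands. This was done for the 68 members and 9414 protein-coding genes fitted that had a window. A gene counted once if any of its windows held the match. The members had 74 windows and all genes 12018. That is more windows per gene for all genes, and so more places for a match, which the shares below do not correct for. NRF1 is a nuclear activator of genes for respiration, GABP an ETS factor with the same role, and YY1 a zinc finger factor found at many ribosomal and mitochondrial promoters. The ETS core was found in 25 of 68 members (36.8%), beside 20.8% of all genes. The NRF1 motif was found in 13 (19.1%, beside 11.7%), 10 of them among 42 Mrpl genes, and ATGGCGG, the core bound by YY1, in 12 (17.6%, beside 9.56%). The window of Mrpl30 holds an NRF1 match at position -83, which lies in an annotated exon and is not printed. In the window of Mrpl17 the matches begin at -49 (NRF1) and -237 (ETS). The letters GGGCGG of the SP1 GC box were found in 34 members (50%, beside 67.7%) and CCAAT in 26 (38.2%, beside 43.1%). The E-box CACGTG was found in 5 members (7.35%, beside 11.7%) and TATAAA in 5 (7.35%, beside 8.6%). Motifs can share bases, as the GC box at -241 and the ETS core at -237 of Mrpl17 do. The median GC content of the windows was 58% in members and 60.7% in all genes. These matches are letters in a window, not measured binding.

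The members are spread over many chromosomes, with most on chromosome 11 (11 genes) and chromosome 17 (8 genes) and none on the X chromosome. A feature shared by many was a close neighbour, here a protein-coding gene on the other strand whose start site lies within 1000 bases. Start sites were taken in either order, so some pairs overlap at their 5′ ends and do not point apart. Mrpl36 and Ndufs6 share 30 exon bases, and Mrpl47 and Ndufb5 share 616. Such a neighbour was annotated for 33 of 77 members (42.9%), beside 16.6% of 11859 protein-coding genes fitted. Several neighbours also serve mitochondria, among them Ndufs6 and Ndufb5, subunits of complex I (next to Mrpl36 and Mrpl47), Twnk, the helicase of mitochondrial DNA (next to Mrpl43), and Sars2, the mitochondrial seryl-tRNA synthetase (next to Mrps12). Mrpl46 and Mrps11 are each other's neighbour and share 173 exon bases. They had fitted changes of -0.10 (adjusted p = 0.681) and -0.15 (adjusted p = 0.587).

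Of 31 neighbours that were fitted, the members Mrpl46 and Mrps11 among them, 1 was called (3.23%), beside 13.9% of all genes fitted. It was Rab6a, a GTPase of Golgi transport, which rose by log2 0.35 (SE 0.066, adjusted p = 0.000908 by edgeR). Mrpl48 beside it changed by 0.12 (adjusted p = 0.297). Mitd1, which acts in abscission at the end of cell division, changed by -0.29 (SE 0.11, adjusted p = 0.0834), against -0.30 for Mrpl30. The start sites of the pair are 66 bases apart. No strand-marking step appears in the library protocol, so where such neighbours overlap, their reads cannot be told apart.

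**Figure D2:**
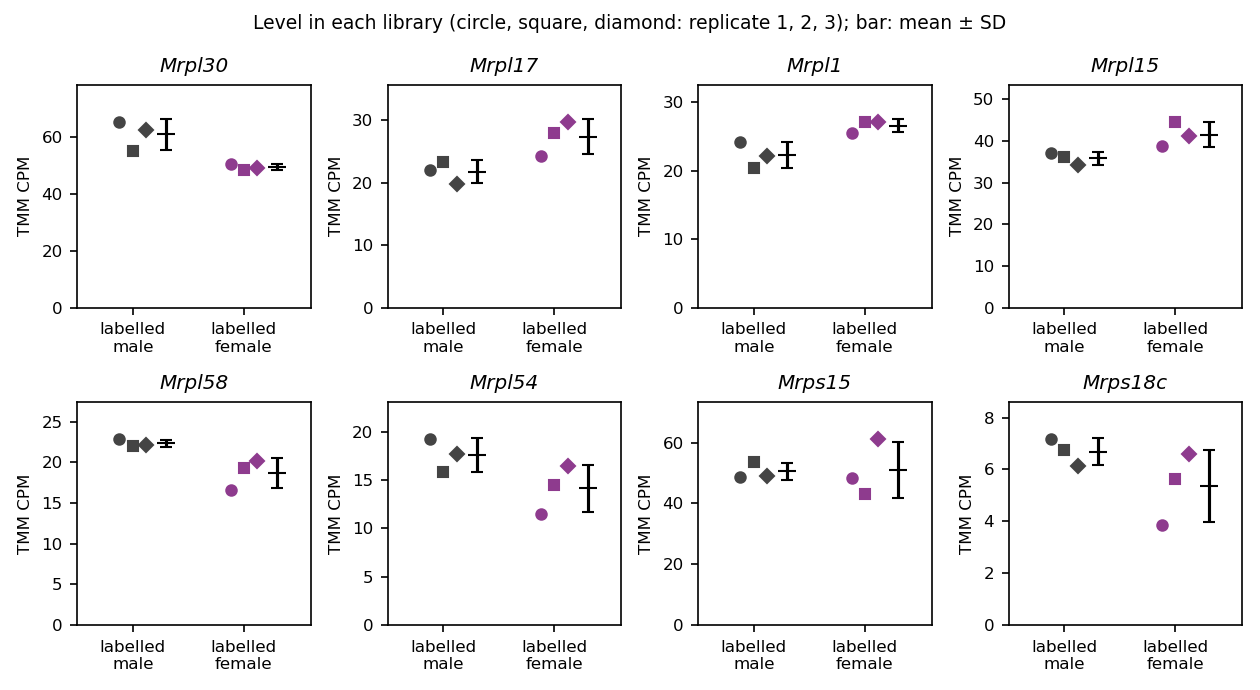
TMM-normalized CPM in each library for 8 members, with libraries labelled male in grey and female in purple and the mean ± SD of 3 at the side of each group. Mrpl30 and Mrpl17 are the members called, Mrpl1 and Mrpl15 (higher) and Mrpl58 and Mrpl54 (lower) are the 2 in each direction nearest to the threshold without passing it, and Mrps15 (48.4, 43.3 and 61.2 CPM under the label female) and Mrps18c show a wide spread within a group.

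Of the members that did not pass, the 3 with the smallest adjusted p, Mrpl1, Mrpl15 and Mrpl50, had higher means under the label female, and Mrpl58 and Mrpl54, with lower means, came next. Mrpl1, a protein of the mobile stalk where transfer RNAs leave, had 24.2, 20.4 and 22.1 CPM under the label male and 25.5, 27.1 and 27.0 CPM under the label female (log2 0.25, SE 0.094, adjusted p = 0.0794 by edgeR). Mrpl15, counterpart of bacterial L15, had 37.2, 36.2 and 34.2 against 38.9, 44.6 and 41.1 CPM (log2 0.21, adjusted p = 0.0824). Mrpl50, specific to mitochondria, had 18.2, 19.9 and 18.9 against 22.8, 25.5 and 20.7 CPM (log2 0.27, adjusted p = 0.0831). For these 3 genes the groups did not overlap. Mrpl58, a peptidyl-tRNA hydrolase that also frees stalled ribosomes, had 22.9, 22.02 and 22.1 against 16.6, 19.4 and 20.1 CPM (log2 -0.26, adjusted p = 0.103). Mrpl54, specific to mitochondria, had 19.3, 15.8 and 17.8 against 11.5, 14.5 and 16.4 CPM (log2 -0.31, adjusted p = 0.114), with overlap between the groups. Without library female replicate 3, Mrpl15, Mrpl50, Mrpl58 and Mrpl54 passed by edgeR (adjusted p = 0.049, 0.0144, 0.0348 and 0.0132), where 22.4% of all genes did.

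Small subunit genes gave no call by edgeR in either direction, and 1 of 29, Mrps31, had an unadjusted p under 0.05, beside 27.6% of all genes (DESeq2 and limma-voom likewise called none). The largest fitted change among them was that of Mrps34, which rested on 79 to 108 counts per library. It had 5.20, 6.16 and 6.20 CPM under the label male and 4.18, 4.49 and 5.11 CPM under the label female (log2 -0.35, SE 0.18, adjusted p = 0.226), with no overlap between the groups. Its annotated exons share 63.4% of their bases with Mapk8ip3 on the other strand and 37% with Nme3 on its own, so its counts are uncertain.

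Mrps18a, Mrps18b and Mrps18c are paralogs of bacterial S18 with separate places in the ribosome. Mrps18c holds the place of S18 in the small subunit, Mrps18b another place there, and Mrps18a sits in the large subunit in spite of its symbol, as does Mrps30. Mrps18a had 19.7, 19.1 and 20.9 CPM under the label male and 20.4, 19.4 and 22.9 CPM under the label female (log2 0.07, interval -0.14 to 0.28). Mrps18b had 7.68, 7.13 and 8.22 against 7.14, 7.91 and 6.70 CPM (log2 -0.08, interval -0.40 to 0.23). Mrps18c had 7.17, 6.73 and 6.14 against 3.86, 5.65 and 6.60 CPM (log2 -0.31, adjusted p = 0.304), and the libraries labelled female spanned 0.77 on the log2 scale, the widest of any member within a group. Per kilobase of transcript the levels were 23.1, 6.92 and 9.44 CPM for Mrps18a, Mrps18b and Mrps18c. Next widest within a group was Mrpl52, with 11.96, 15.1 and 19.2 CPM under the label female.

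Grouped by place in the structure, with Mrps30 and Mrps18a in the large subunit and Mrps36 left out, 50 large and 26 small subunit genes had medians of 0.04 and 0.00 on the log2 scale. Mrps36 is now assigned to the 2-oxoglutarate dehydrogenase complex and had 15.5 ± 1.41 and 16.2 ± 0.326 CPM (SD, n = 3). Proteins with a bacterial counterpart (46 genes) had a median change of 0.01, both calls and 5 genes at an unadjusted p under 0.05. Those specific to mitochondria (30 genes) had a median of 0.03 and no call by edgeR, with 4 at an unadjusted p under 0.05, where 27.6% of all genes had one. Without female replicate 3, Mrpl50, Mrpl54 and Mrpl58 of these 30 were called, where 22.4% of all genes then were. Over all 77 members the groups did not overlap in 18 (23.4%), beside 30.9% of all genes fitted. Higher in the libraries labelled female without overlap were 14 of 77 members, where 15.9% of all genes fitted were. Lower without overlap were 4 of 77 members, where 15% of all genes fitted were.

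Levels can be compared between genes only per length, here as CPM per kilobase of the principal annotated transcript. The median was 17.5 for Mrpl genes and 11.6 for Mrps genes, beside 8.59 for all genes fitted. The most abundant by this measure was Mrps21 (95.6 CPM per kilobase), followed in the small subunit by Mrps15 (54.2), Mrps23 (34.0) and Mrps9 (33.1). In the large subunit Mrpl42 (63.6), Mrpl30 (57.1), Mrpl33 (53.9) and Mrpl20 (50.2) led. Lowest were Mrps6 (2.92) and Mrps25 (3.21) in the small and Mrpl47 (3.32) and Mrpl17 (3.36) in the large subunit. Mrps25 shares 69.8% of its annotated exon bases with Nr2c2 on the other strand. Mrps6 shares 19.9% with Gm49711 and 10.4% with Slc5a3 on its own strand. How shared reads were counted is not known, so these levels are uncertain. The order also depends on the transcript model. With the shortest basic coding transcript Mrpl17 had 23.9 CPM per kilobase, and Mrps23 (136) passed Mrps21 (115), while Mrps6, Mrps25 and Mrpl47 stayed lowest. Most of these proteins occur in equal numbers in a ribosome, and their messenger RNAs spanned 2.92 to 95.6 CPM per kilobase.

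Mrpl30 and Mrpl17, called as described above, are thus near the top and the bottom of the large subunit by the principal transcript. Mrps23, specific to mitochondria, had 46.4, 45.8 and 44.0 CPM under the label male and 46.4, 44.5 and 44.3 CPM under the label female (log2 -0.01, interval -0.16 to 0.14). Mrps21, counterpart of bacterial S21, had 46.7, 46.0 and 45.0 against 45.5, 43.9 and 52.9 CPM (interval -0.12 to 0.21). Their groups overlapped. Mrps9 was at 49.1 ± 1.27 against 44.9 ± 3.197 CPM (SD, n = 3; adjusted p = 0.281 by edgeR). Mrpl12, the stalk protein that recruits translation factors, was at 36.1 ± 3.61 and 36.1 ± 5.14 CPM (SD, n = 3), with an interval from -0.21 to 0.21. Mrps6 rested on 39 to 54 counts per library, and its interval ran from -0.55 to 0.53.

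Mrpl53 was the gene left out by the count rule. It had 0 counts in every library, which allows at most 3 counts or 0.144 to 0.175 CPM per library, for counting error only. Of its 790 annotated exon bases 695 also belong to Gm42688, which had 2 to 22 counts. The sources used here do not say how shared reads were counted.

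Summed over members, levels varied little among libraries. The Mrpl genes summed to 1320, 1260 and 1290 CPM under the label male and to 1240, 1310 and 1360 CPM under the label female. For the Mrps genes the sums were 664, 672 and 661 against 643, 646 and 717 CPM. The groups overlapped for both. The ratio of the Mrpl to the Mrps sum was 1.94 ± 0.0557 and 1.95 ± 0.0681 (SD, n = 3). Library female replicate 3 had the highest sums and was the highest of the 6 libraries for 27 of 77 members, and female replicate 1 was the lowest for 22. Within groups the median coefficient of variation of a member was 6.23% in the libraries labelled male and 7.99% in those labelled female.

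**Figure D3:**
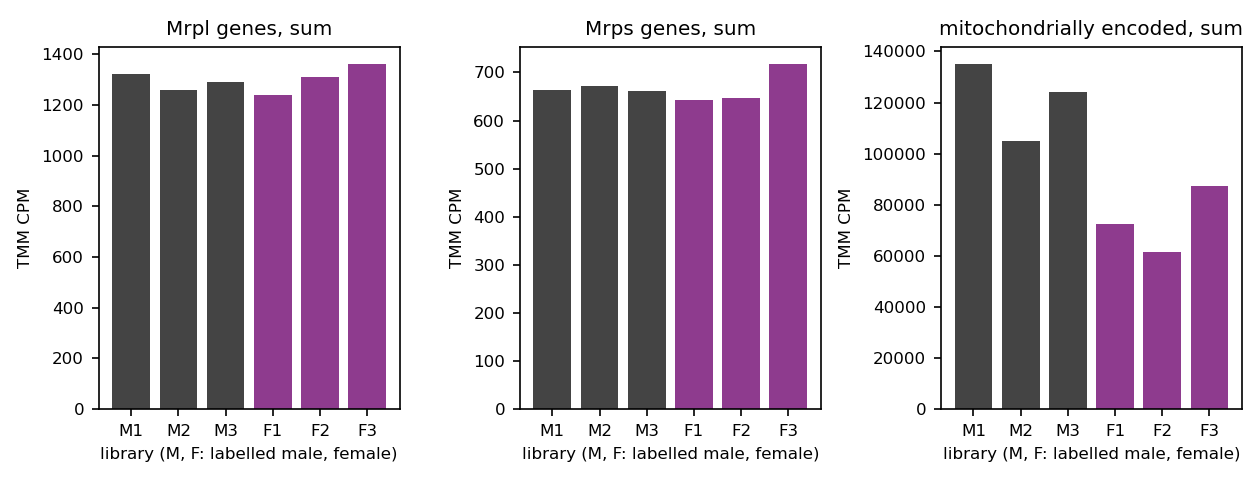
Sum of TMM-normalized CPM over the 48 Mrpl genes, the 29 Mrps genes and 12 mitochondrially encoded genes in each library (M1 to M3 labelled male, F1 to F3 labelled female). Both ribosomal protein sums overlap between the groups, while every library labelled female is below every library labelled male for the mitochondrially encoded sum.

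The messenger RNAs that this ribosome translates did differ. Of 12 mitochondrially encoded genes fitted 8 fell and none rose by edgeR, with a median log2 change of -0.71. The fitted change was below 0 for all 12. Those not called, mt-Co3, mt-Atp6, mt-Nd3 and mt-Nd4l, averaged 144, 49.9, 6.75 and 1.38 CPM, against 51000 CPM for mt-Co1. The called mt-Co2 averaged 178 CPM. The sum and the ratio below thus rest on the genes with most counts. How reads that map to several places were treated is not known, so few counts need not mean little RNA. Their sum was 121000 ± 15200 CPM under the label male and 73800 ± 13100 CPM under the label female (SD, n = 3). mt-Nd5, a subunit of complex I, had 12480, 9490 and 10890 against 6866, 5184 and 7091 CPM (log2 -0.78, SE 0.10, adjusted p = 1.79e-05). mt-Nd4 and mt-Nd6 each fell 1.66-fold. mt-Co1, the catalytic subunit of cytochrome c oxidase and the gene with the highest CPM of the list, fell 1.65-fold. Without a strand-marking step, reads of RNA from the other strand of a gene, mt-Nd6 included, cannot be told apart here either. The ratio of this sum to that of the members was 54.5 to 68.4 in the libraries labelled male and 31.5 to 42.1 in those labelled female. Library female replicate 3 had the highest ratio of its group. With these genes removed before library sizes were computed, the members called were again Mrpl30 and Mrpl17.

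Subunits of the same ribosome that carry another name numbered 5, and none passed by edgeR, nor at an unadjusted p under 0.05. Dap3, a GTP-binding protein of the small subunit, was at 66.3 ± 5.43 and 67.3 ± 4.67 CPM (SD, n = 3; interval -0.13 to 0.18). Ptcd3, at the entry of the messenger RNA, was at 46.1 ± 3.42 and 46.5 ± 5.16 CPM. Chchd1 was at 22.2 ± 4.07 and 23.0 ± 1.79 CPM and Aurkaip1 at 56.0 ± 4.14 and 54.6 ± 5.58 CPM. Gadd45gip1, at the exit of the large subunit, was under 1.2 CPM in every library, and its interval ran from -1.65 to 0.31.

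Other genes of mitochondrial protein synthesis were called singly. Of 13 translation factors 1 fell and none rose by edgeR (median -0.05). Mtfmt, which adds the formyl group to the initiator methionyl-tRNA, fell from 17.7 ± 1.22 to 13.4 ± 1.40 CPM (SD, n = 3; log2 -0.40, adjusted p = 0.0253), a call lost without male replicate 2 or 3 or female replicate 1 (adjusted p = 0.12, 0.0708 and 0.124). Tufm, the elongation factor and most abundant of them per kilobase, was at 48.1 ± 4.05 and 44.7 ± 0.570 CPM (adjusted p = 0.40).

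Of 22 aminoacyl-tRNA synthetases and related enzymes of mitochondria 2 fell and 1 rose (median -0.07). Hars2, for histidine, fell from 33.4 ± 0.499 to 27.6 ± 0.526 CPM and Cars2, for cysteine, from 32.4 ± 2.86 to 26.9 ± 0.273 CPM (SD, n = 3; adjusted p = 0.0249 and 0.0431 by edgeR). Nars2, for asparagine, rose 1.53-fold from 3.86 ± 0.823 to 5.89 ± 0.626 CPM (adjusted p = 0.0463). Hars2 kept its call only without female replicate 3 (adjusted p from 0.0553 to 0.0986 without each of the others). Cars2 lost it without male replicate 1 or 2 or female replicate 1 or 2 (0.0944 to 0.211), and Nars2 without male replicate 2 or 3 or female replicate 1 or 2 (0.102 to 0.181). With upper-quartile scaling the adjusted p of Nars2 was 0.053. Kars, which serves both the cytosol and mitochondria, was at 98.7 ± 2.82 and 96.3 ± 0.423 CPM.

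Of 27 genes of ribosome assembly and ribosomal RNA modification 1 rose and none fell by edgeR (median 0.03). Gtpbp10, a GTPase of large subunit assembly, rose from 13.0 ± 1.29 to 16.9 ± 1.44 CPM (SD, n = 3; log2 0.37, adjusted p = 0.0405), a call lost without male replicate 1 or 3 or female replicate 1 or 2 (adjusted p from 0.0899 to 0.167). Grsf1, of the granules where mitochondrial RNA matures, was at 70.5 ± 2.29 and 72.3 ± 0.990 CPM. Of 18 genes of mitochondrial transcription and RNA processing 2 fell and none rose by edgeR (median -0.03). Pnpt1, a nuclease that degrades mitochondrial RNA, fell 1.21-fold from 64.8 ± 2.26 to 53.7 ± 1.13 CPM (adjusted p = 0.00888, and 0.0626 without male replicate 3). Elac2, which trims the ends of transfer RNAs, fell 1.24-fold (adjusted p = 0.0241), a call lost without male replicate 1 or 3 or female replicate 1 or 2 (adjusted p from 0.0614 to 0.118). Rexo2, an oligoribonuclease, was at 56.1 ± 3.40 and 54.9 ± 1.44 CPM.

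Among 10 nuclear regulators of such genes, Nrf1, Gabpa and Yy1 included, 1 rose and none fell by edgeR (median -0.06). It was Max, the partner of Myc, with 188.9, 183.5 and 188.5 CPM under the label male and 236.2, 236.7 and 261.6 CPM under the label female (log2 0.39, SE 0.059, adjusted p = 0.000115). Shares called in these lists, other than the mitochondrially encoded one, ran from 0% to 13.6%, beside 13.9% of all genes.

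**Figure D4:**
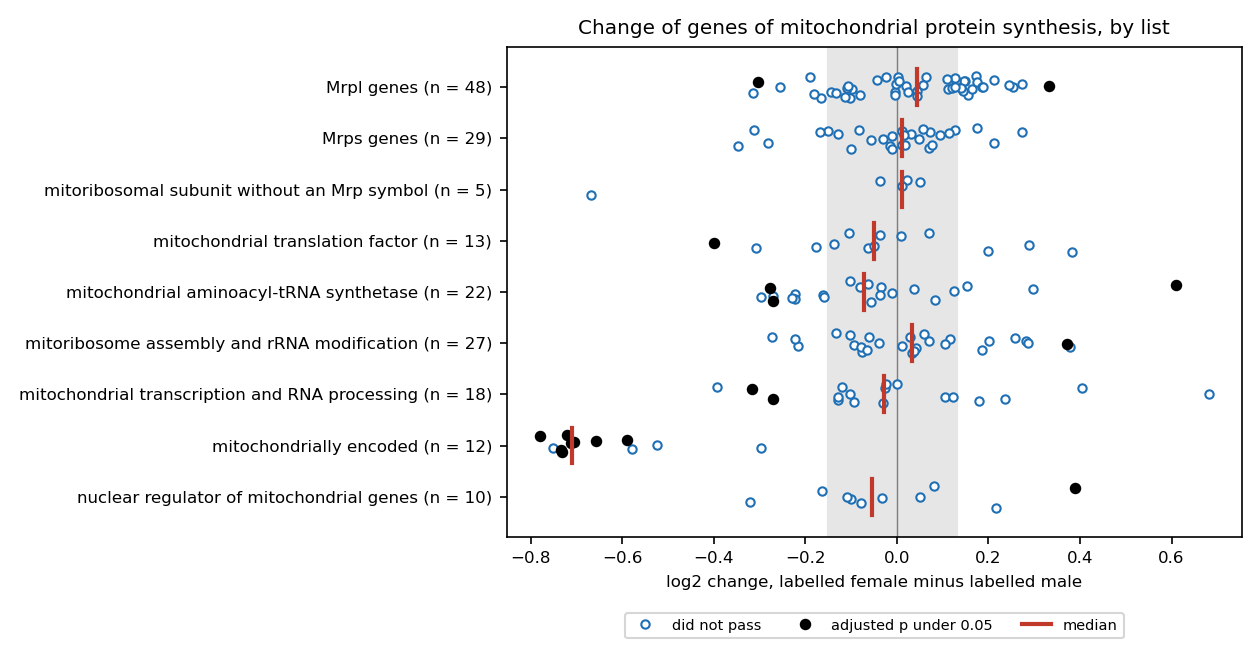
Fitted log2 change (x axis) of each gene of the Mrpl and Mrps groups and of 7 lists of related genes, with the median of each as a red line. The grey band is the interquartile range of all genes fitted, from -0.15 to 0.13, and black points have an adjusted p under 0.05. The mitochondrially encoded genes lie to the left of the band with a median of -0.71, and the medians of all other lists lie inside it.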

How the data were processed

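Poly-A RNA of 6 libraries was sequenced, and the authors deposited raw counts per Ensembl gene, whole numbers without normalization. The submitters' processing notes list cutadapt 1.15, HISAT2 2.0.5 and the build GRCm39. How reads were assigned to genes, strand included, is not stated there. Symbols came from gene tables that named 21847 of 21955 identifiers, and gene types, exons, start sites and transcript lengths from GENCODE M21 of the older build GRCm38.

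Counts were fitted with edgeR 4.0.16 in R 4.3.3 (TMM, filterByExpr at minimum count 10, quasi-likelihood test, group as the only term, Benjamini-Hochberg adjustment over 11903 genes, threshold 0.05). All 77 members passed the filter. CPM use TMM library sizes. SEs follow from the change and its F statistic, and 95% intervals from SE and t quantiles. The pipeline was tested on simulated counts. Replicates were checked for copies.

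Members and lists were chosen with earlier results of these data known. Named genes are called members, the 4 highest and 2 lowest per kilobase in each subunit, the Mrps18 paralogs, the 2 nearest the threshold per direction, the 2 widest within a group, members below the count rule, up to 3 called and the most abundant gene of each related list, and subunits without an Mrp symbol. Mrps34, Mrpl12, Mrps30, Mrps36, Mrpl4, Mrpl28, Mrpl50, Mrps31 and the close neighbours were added once their values had been seen. As alternatives, the fit was repeated with DESeq2 1.42.0, limma-voom (limma 3.58.1), other scalings and filters, a stricter threshold, the replicate block and leaving out each library.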

Additional observations from a re-analysis of the deposited data

How the results depend on the processing

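With DESeq2 size factors or upper-quartile factors in edgeR, DESeq2, limma-voom, unfiltered counts, a minimum of 10 CPM in 3 libraries, and the mitochondrially encoded genes removed, 1 member was higher and 1 lower, and these were Mrpl17 and Mrpl30 in each. Of all genes fitted, 12.4% (unfiltered counts) to 18.4% (10 CPM in 3 libraries) were called in these settings. At an adjusted p under 0.01, 0 members were higher and 1 lower by edgeR, where 6.89% of all genes were called. Leaving out each library in turn gave 0 to 2 higher and 0 to 5 lower members. The share of all genes called then ran from 7.51% (without male replicate 3) to 22.4% (without female replicate 3). The median of Mrpl genes ran from 0.025 (without female replicate 3) to 0.077 (without male replicate 1). That of Mrps genes ran from -0.024 (without female replicate 3) to 0.046 (without female replicate 1). The SD between libraries was 0.044 for Mrpl and 0.056 for Mrps genes on the log2 scale. Leaving out 1 of 3 libraries can hardly shift a median by more than this SD, so these ranges do not test stability. Same-numbered libraries of the groups did not deviate together (r = -0.039, 0.065 and 0.063), and not every library correlated best with its own number. The replicate block gave 1 higher and 1 lower member and 1921 calls over all genes, against 1656 without it. Single genes and related lists were each compared once per alternative. Of these comparisons 698 kept their side of the threshold or, for counts, stayed within 1.5 times. A call was lost in 32 and gained in 3, and 26 counts moved by over 1.5 times. Genes far from the threshold, such as Mrpl42 (adjusted p = 0.991 by edgeR), had little room to change side. The lost calls are those given above for single genes. No group had the 4 libraries that a check for outlying samples needs. Depth limits Mrps6, Mrps34 and Mrps18c most.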
